A study of Mus musculus with 60 samples.

Results

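The genes described here are the translation factors and nucleolar proteins of mouse hepatocytes. They are the genes whose array symbol begins with Eif1 to Eif6, Eef1 or Eef2, together with Ncl, Npm1, Fbl, Nop56, Nop58, Nolc1, Nop2, Pes1 and Bop1. They were chosen by name, and no measured value entered the rule, but earlier results of these data were known at that point. They numbered 63 of the 14441 genes that had a probe with 1 gene symbol, on 70 probes, and the probe with values on most arrays stood for each gene. Of these, 49 passed the filter on missing values and were tested. The other 14 were not tested and are named at the end. Eif1, Eif2s1, Eif4g1 and Dkc1 belong to the same families but were matched to no probe with 1 symbol and were not analysed here.

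Protein synthesis begins when eIF4F binds the cap of an mRNA and eIF2, with eIF3, loads the initiator tRNA onto the small ribosomal subunit, which then scans to the start codon. eIF5 and eIF6 govern the joining of the subunits, and the eEF1 and eEF2 factors carry the ribosome along the message. Ribosomes themselves are built in the nucleolus, where fibrillarin, Nop56 and Nop58 guide rRNA methylation and nucleolin, nucleophosmin, Nop2, Pes1 and Bop1 act on rRNA and its particles. Growth factors such as hepatocyte growth factor (HGF), which signals through the receptor tyrosine kinase Met, are known to switch on both steps through the PI3K, mTOR and ERK pathways.

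The 60 arrays held RNA of primary hepatocytes from male mice aged 9 to 10 weeks. KO cultures came from mice with Alb-Cre +/-; Met Fl/Fl, strain label 129SV/C57BL6, in which the albumin promoter drives Cre in hepatocytes. WT cultures were labelled as Cre controls of strain C57BL, and a genotype, heterozygous for Cre recombinase, is given for 6 of their 30 arrays. Strain and genotype thus changed together. Each genotype was read untreated (0 h) and after HGF at 50 ng/ml (the labels also give 50 nM) for 0.5 h, 2 h, 12 h or 24 h, with 3 cultures in each of the 10 groups and triplicates that came from individual mice. The design held no untreated cultures at later times, so HGF and time in culture cannot be told apart. Every culture was hybridised on a pair of dye-swapped arrays against RNA pooled from WT hepatocytes, and its value is the mean of the pair. The deposited ratios of the 2 arrays of a culture correlated negatively over all probes in 23 of 30 cultures, with r from -0.677 to 0.186. A level here is a log2 ratio to that pool, which sets no gene's level against another's. The mean leaves out the difference between the paired arrays. On that difference, 3238 probes passed limma's test in KO at 2 h against 0.5 h, where 127 passed on the mean. In WT at 12 h against untreated the numbers were 795 and 847, and in KO against WT averaged over time 2 and 1474. What the mean cancels was not tested.

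The orientation of the deposited ratios is not stated. Sample over pool is the likely direction, since Hbegf, which growth factors induce, averaged 1.64 ± 0.09 in WT cultures after 0.5 h of HGF, against 0.39 ± 0.30 in untreated WT cultures (SD, n = 3 each). The Met probe averaged 0.09 to 0.42 over the KO groups and -0.09 to 0.45 over the WT groups. The sources do not place that probe relative to the deleted part of Met, so it checks no label. The hepatocyte markers tested, 8 of 9 listed, were read in every group. Their mean was -0.74 in KO and -1.02 in WT cultures at 24 h, against 0.03 in KO and -0.07 in WT cultures at 0 h. At 24 h 5 of these 8 markers in KO and 4 in WT passed the test as lower than untreated. Between genotypes Cps1 and Asgr1 were higher in KO averaged over time, at 0.49 and 0.38 (adjusted p = 0.00193 and 0.00649; 2 of 8), and 0 were lower. At single times Cps1 was higher in KO at 0.5 h, at 1.18, and Asgr1 at 24 h, at 0.80. The part of these markers in the results below was not tested.

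The array numbers fall into 4 sets, and the members' level moved with them. The median of the 49 members was 0.12, 0.30 and -0.16 in the 3 KO cultures at 24 h and 0.43, 0.41 and -0.17 in the 3 WT cultures at 24 h. In untreated WT cultures it was 0.18, 0.18 and -0.24. Replicate 3 of each of these groups has both arrays in set B, and these 3 medians were the lowest of all 30 cultures. The others have both arrays in set C except WT 24 h replicate 2 (median 0.41), whose Cy3 array belongs to set B while the Cy5 one belongs to set C; it was counted with C. All 19 pairs of arrays of the same dye that correlated below -0.3 held the Cy5 array of WT 0 h replicate 3, so its direction is unsettled. The medians and counts over all 49 members and the members' calls that rest on untreated WT cultures are given also with its sign turned. Genes outside the members, the cell type markers among them, are given as fitted only. Ncl and Eif2s3x-ps1 also had a single very low value, -1.47 and -3.08, in KO 24 h replicate 2, in the group with the widest spread over all probes (residual SD 0.43, against 0.17 in WT cultures at 2 h).

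**Figure D1:**
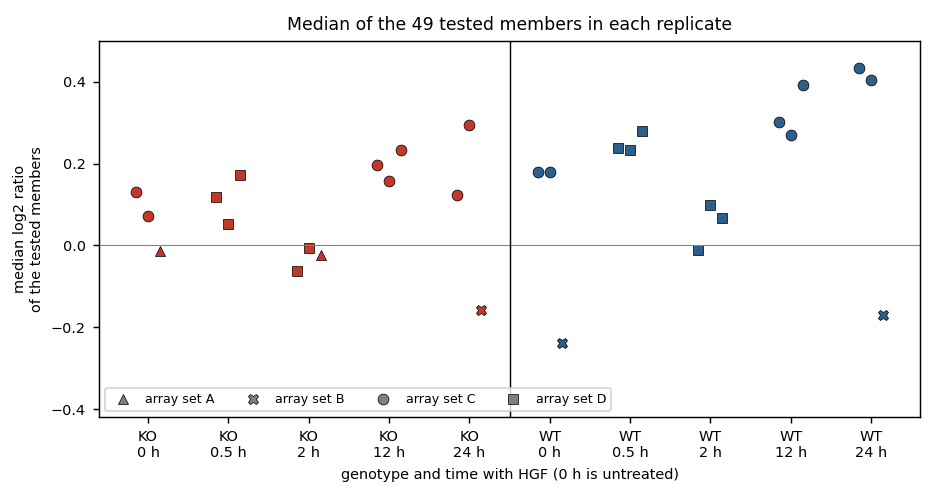
Median log2 ratio to the pool of the 49 tested members in each of the 30 cultures (vertical axis), by genotype and time (horizontal axis); colour gives the genotype and marker shape the array set. WT 24 h replicate 2, with 1 array in set B and 1 in set C, is drawn as C. The 3 cultures with both arrays in set B (crosses) have the lowest medians, -0.16 in KO at 24 h, -0.24 in WT at 0 h and -0.17 in WT at 24 h.

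Before HGF no member passed the test of genotype. The differences, KO minus WT, ran from -0.40 (Eif3l) to 0.26 (Eif3b) with a median of 0.03. At an adjusted p under 0.05, 0 of 49 passed limma's test, where 0.0617% of all tested probes did. At an unadjusted p under 0.05 there were 0, against 5.22% of all probes. With the sign of the unsettled array turned the median was -0.18, and 0 passed. After HGF the members' medians lay below 0 at each time. They were -0.17 at 0.5 h, -0.08 at 2 h, -0.20 at 12 h and -0.16 at 24 h, against -0.04, 0.02, 0.00 and 0.00 for all probes. The dye orientations gave them alike only at 24 h. On Cy5 arrays they were -0.04, -0.14, -0.30 and -0.145, and on Cy3 arrays -0.27, -0.005, -0.02 and -0.16. Members of the same sign on both numbered 28, 33, 31 and 31 of 49. At 0 h the medians were 0.20 on Cy5 and -0.09 on Cy3 arrays, with 18 of 49 of the same sign.

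No single member passed limma's test of genotype at a time after HGF, with 0 of 49 called at 0.5 h (4.3% of all probes), at 2 h (0.432%), at 12 h (2.84%) and at 24 h (4.77%). At an unadjusted p under 0.05 the members numbered 7, 2, 4 and 9 at these times. These were 14.3%, 4.08%, 8.16% and 18.4% of the 49, against 20.6%, 8.61%, 14.1% and 19.5% of all probes. At 24 h the count rests on single cultures. Without WT 24 h replicate 3, 8 members were called, all lower in KO, where 9.22% of all probes were called, and the median of the 49 was -0.33. Without KO 24 h replicate 1, 2 or 3 the number called was 2, 1 and 1 (6.78%, 3.85% and 7.1% of all probes). The members called without WT 24 h replicate 3 were Ncl, Nolc1, Eif4a1, Eif3h, Eef1d, Eif2ak4, Eif2s3x and Eif2s3x-ps1.

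Averaged over the 5 times, 43 of the 49 members were below 0 in KO relative to WT, where 51.5% of all probes were. Their median was -0.11, against 0.00 for all probes, and the dye orientations gave it alike, -0.12 on Cy5 arrays and -0.12 on Cy3 arrays. With the sign of the unsettled array turned it was -0.16. Only Eif4a1 and Eef1a2 passed the test, 2 of 49 as lower and 0 as higher, while 10.1% of all probes passed, 743 as lower and 731 as higher. The called share of the members was thus below the background. At an unadjusted p under 0.05 were 15 members, all lower in KO, or 30.6% of them against 22.8% of all probes. Under the alternatives run, 0 members were called higher in KO in this comparison.

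The count of 2 moved with the cultures in the fit, and the share of all probes called moved with it. Without WT 24 h replicate 3 the members called were 13, or 26.5% of the 49, against 14.1% of all probes. Without WT 0 h replicate 3 they were 9 (18.4% against 13.1%), and without KO 24 h replicate 2 they were 5 (10.2% against 11.0%). Scale normalization gave 7 (14.3% against 12.5%), and turning the sign of the unsettled array gave 10 (20.4% against 13.2%). With the array set as a term 16 were called (32.7% against 16.7%), or 12 (24.5% against 14.9%) with WT 24 h replicate 2 counted in set B. On Cy5 arrays alone 0 were called, where 4.61% of all probes were. Leaving out KO 0 h replicate 3, KO 0.5 h replicate 3, KO 2 h replicate 1 or 3, WT 0 h replicate 1 or 2, WT 0.5 h replicate 3, WT 2 h replicate 2 or WT 12 h replicate 3 left 1, where 8.35% to 9.42% of all probes were called. Without both WT 0 h replicate 3 and KO 24 h replicate 2, 13 were called (26.5% against 15.1%), all lower in KO. They were Eif4a1, Eif4e, Eif4g2, Eif4ebp1, Eif5a, Eif1ax, Eif3k, Eif3l, Eif3m, Eef1a2, Ncl, Nolc1 and Nop56. Leaving out this pair was decided after seeing the data. WT 0 h replicate 3 had the lowest members' median of its group, -0.24, and KO 24 h replicate 2 the highest of its group, 0.295. By these medians, leaving them out moves KO down relative to WT. The count of 13 and the genotype calls without this pair given below are therefore no separate evidence.

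**Figure D2:**
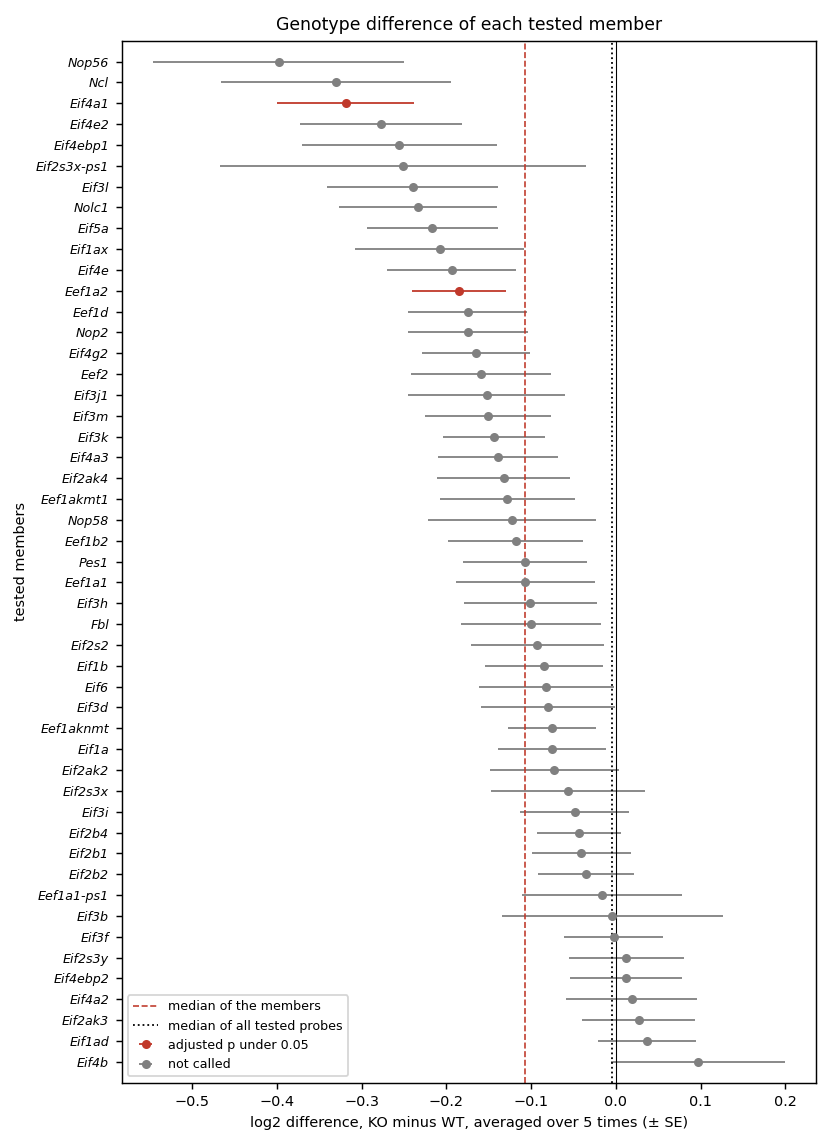
Log2 difference, KO minus WT, averaged over 5 times, with its standard error (horizontal axis) for each tested member (vertical axis). Of 49 points 43 lie below 0; the dashed line is the members' median, -0.11, the dotted line that of all tested probes, and red marks Eif4a1 and Eef1a2, which passed the test.

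Few members passed the test of time in either genotype. In WT cultures against untreated ones the members' median was 0.22 at 0.5 h, 0.01 at 2 h, 0.27 at 12 h and 0.17 at 24 h, with 0 members called by limma at 0.5 h (0.123% of all probes) and 0 at 2 h (0.446%). At 12 h 4 were called (5.81%), 3 higher and 1 lower, and at 24 h 6 (8.72%), 5 higher and 1 lower. In KO cultures the medians were 0.01, -0.08, 0.11 and -0.02, with 0 called at 0.5 h (0.00686%), 0 at 2 h (0.0343%), 0 at 12 h (0.13%) and 1, lower, at 24 h (3.48%). These KO medians were 0.21, -0.31, 0.20 and 0.03 on Cy5 arrays and -0.135, 0.10, -0.01 and -0.01 on Cy3 arrays. Members of the same sign on both numbered 16, 14, 26 and 32 of 49. In WT the medians on Cy5 and Cy3 arrays were 0.38 and 0.03 at 0.5 h and 0.03 and -0.03 at 2 h. At an unadjusted p under 0.05 there were 8 and 3 members in WT at 0.5 h and 2 h, and 1, 2 and 5 in KO at 0.5 h, 2 h and 12 h. In WT these were 16.3% and 6.12%, against 14.75% and 12.5% of all probes. In KO they were 2.04%, 4.08% and 10.2%, against 4.43%, 5.92% and 8.37%. The medians of all probes lay between -0.03 and 0.04 in these comparisons. With the sign of the unsettled array turned the WT medians were 0.01 at 0.5 h and -0.20 at 2 h, and 0 members passed at either time (0.0206% and 7.53% of all probes).

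These counts rest on single cultures too. In WT at 12 h, 9 were called without WT 0 h replicate 1, where 8.28% of all probes were. There 1 was called without WT 0 h replicate 3, WT 12 h replicate 1 or WT 12 h replicate 2 (2.27%, 2.86% and 2.18%), and 2 without WT 12 h replicate 3 (3.48%). In WT at 24 h, 16 were called without WT 24 h replicate 3 (13.8%), 15 of them higher. There 1 was called without WT 0 h replicate 3 or WT 24 h replicate 1 (8.51% and 6.36%), and 2 without WT 24 h replicate 2 (6.76%). In KO at 24 h, 4 were called without KO 24 h replicate 3 (6.73%), 3 without KO 24 h replicate 1 (4.16%) and 2 without KO 0 h replicate 3 (2.74%). Of the 49 members 12 passed in at least 1 comparison as fitted, 32 others under at least 1 alternative only, and 5 in no fit, namely Eef1a1, Eef1a1-ps1, Eef1akmt1, Eif2b1 and Eif2s2. The share of all probes that passed in at least 1 fit was not counted. These numbers are therefore not read as a result about the members. A member described below as not passing is one that did not pass as fitted.

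The medians above 0 in WT cultures at 12 h and 24 h were those of the Cy5 arrays. At 12 h the members' median was 0.71 on Cy5 arrays and -0.09 on Cy3 arrays, and only 19 of 49 members had the same sign on both. At 24 h the medians were 0.39 and -0.05, with 25 of 49 members of the same sign. With the sign of the unsettled array turned the medians were 0.07 at 12 h and -0.02 at 24 h. So turned, Eif2b2 (0.67) and Eif4e2 (-0.88) at 12 h and Eif3k (0.40) and Eif4a2 (-0.93) at 24 h still passed. Eif3k at 12 h (0.33) and Eif3h (0.38), Eif3f (0.11) and Eif4ebp2 (0.19) at 24 h then did not, with adjusted p of 0.128, 0.152, 0.774 and 0.374. Whether the responses of KO and WT differed was tested over all times together: 0 of 49 members passed (1.58% of all probes), and the lowest adjusted p among members was 0.0944, for Eif2b2. At single times 0, 2, 2 and 3 members had an unadjusted p under 0.05 for the difference of responses at 0.5 h, 2 h, 12 h and 24 h. These were 0%, 4.08%, 4.08% and 6.12% of the 49, against 8.765%, 4.68%, 6.07% and 12.2% of all probes. Without WT 24 h replicate 3, on Cy5 arrays alone or with the array set as a term 1 member passed. With the array set as a term it was Eif2b2, whose missing values make limma's standard errors only approximate in that fit.

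Between 0.5 h and 2 h, times which lie in 1 array set apart from KO 2 h replicate 3, most members had lower values at the later time. In WT cultures 42 of 49 were lower at 2 h than at 0.5 h, with a median of -0.23, against -0.05 for all probes, and in KO cultures 35 of 49 were, with a median of -0.14, against -0.01. In WT 3 passed the test, 1 higher and 2 lower, where 14.5% of all probes did. In KO 0 passed limma's test (0.871%). There 4 members, or 8.16%, had an unadjusted p under 0.05, against 14.7% of all probes. Within array set D alone, 18 passed in WT, 3 higher and 15 lower, or 36.7% of the members against 35.4% of all probes. In KO 2 passed there, both lower, against 9.38% of all probes. The WT count was 0 without WT 0.5 h replicate 2 or 3 or WT 2 h replicate 1 (9.2%, 6.6% and 6.14% of all probes), and 1 without WT 0.5 h replicate 1 (9.77%). With dye profiles removed the WT median was -0.0033, and 6 passed, all higher at 2 h, where 10.2% of all probes passed. In WT the median was -0.40 on Cy5 arrays and -0.09 on Cy3 arrays. In KO it was -0.54 on Cy5 and 0.22 on Cy3 arrays.

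**Figure D3:**
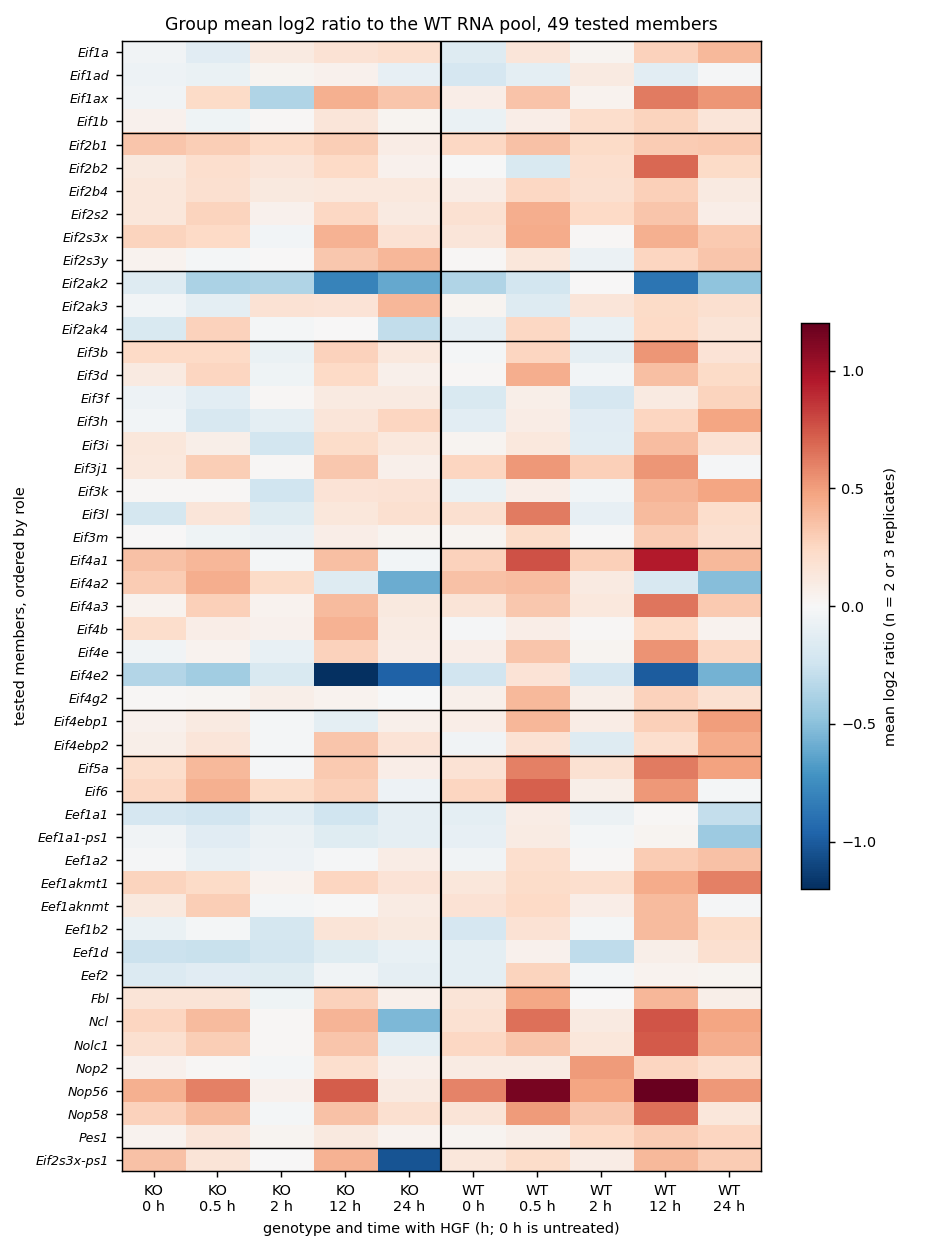
Group mean log2 ratio to the WT RNA pool (colour) of the 49 tested members (vertical axis, ordered by role from scanning factors to nucleolar proteins) in the 10 groups (horizontal axis, KO at left, WT at right, untreated to 24 h). Eif4a1, Nop56 and Ncl are redder in WT than in KO at 0.5 h and 12 h, and Eif4e2, Eif2ak2 and Eif4a2 are blue at 12 h and 24 h in both genotypes.

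The helicase eIF4A, which unwinds the leader of the mRNA, has a pair of cytosolic forms, encoded by Eif4a1 and Eif4a2, and each had a call that held without each culture in turn. The bases before their transcription starts are shown because the genes took opposite directions with time in WT cultures. Capitals mark the E-box CACGTG, the site that Myc and its relatives are known to bind. The sequences are those of RefSeq on GRCm38.p6, 250 bases 5′ to 3′ on the gene's strand and ending at the base before the start.
Eif4a1, chr11:69672424-69672673, minus strand: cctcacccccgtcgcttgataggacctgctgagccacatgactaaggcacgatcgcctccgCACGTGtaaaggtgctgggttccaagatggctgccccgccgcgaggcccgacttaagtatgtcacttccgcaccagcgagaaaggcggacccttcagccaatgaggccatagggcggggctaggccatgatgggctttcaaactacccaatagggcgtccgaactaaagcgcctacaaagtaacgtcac
Eif4a2, chr16:23107218-23107467, plus strand: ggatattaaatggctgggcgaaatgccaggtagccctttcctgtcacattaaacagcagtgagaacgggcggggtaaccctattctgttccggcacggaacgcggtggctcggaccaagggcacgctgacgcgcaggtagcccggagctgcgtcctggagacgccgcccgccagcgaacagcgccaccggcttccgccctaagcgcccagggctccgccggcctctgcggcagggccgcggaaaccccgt
Eif4a1 has 1 E-box in this window, beginning at -189, and no CACGTG was found in that of Eif4a2. A match is a description of the letters and not a site.

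Eif4a1 was lower in KO than in WT and rose at 12 h in WT. Its log2 ratios at 12 h were 0.40, 0.15 and 0.53 in KO cultures, against 0.86, 0.87 and 1.11 in WT cultures. The groups did not overlap, though the difference of -0.59 ± 0.18 (SE) had an adjusted p of 0.0827. At 0.5 h the values were 0.30, 0.29 and 0.62 in KO and 0.63, 0.72 and 0.94 in WT, and again every KO culture lay below every WT culture. Averaged over time the difference was -0.32 ± 0.08 (0.802-fold, adjusted p = 0.0108), and it was -0.33 on Cy5 and -0.31 on Cy3 arrays. It kept its call without each of the 30 cultures in turn, but not on Cy5 arrays alone (adjusted p = 0.156), and was -0.35 with the sign of the unsettled array turned (adjusted p = 0.00137).

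In WT cultures the values of Eif4a1 at 12 h stood above 0.57, 0.42 and -0.17 in untreated ones, a rise of 0.67 ± 0.18 (adjusted p = 0.0272). This call rests on WT 0 h replicate 3: without it the rise was 0.45 (adjusted p = 0.197), and with the sign of its Cy5 array turned 0.52 (adjusted p = 0.0527). Leaving out WT 12 h replicate 1, 2 or 3 also ended it, at adjusted p = 0.0584, 0.0663 and 0.107. The rise was 1.13 on Cy5 arrays, 0.22 on Cy3 arrays (adjusted p = 0.505) and 0.36 with scale normalization (adjusted p = 0.3).

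Eif4a2 fell at 24 h in both genotypes. In KO cultures it read -0.57, -0.37 and -0.84 at 24 h, against 0.21, 0.30 and 0.39 untreated, a change of -0.89 ± 0.17 (0.539-fold, adjusted p = 0.0043). In WT cultures it read -0.23, -0.23 and -1.08 at 24 h, against 0.36, 0.56 and 0.15 untreated, a change of -0.87 ± 0.17 (0.548-fold, adjusted p = 0.00173). The groups did not overlap in either genotype. Leaving out any culture of the groups compared left the call, with values from -1.003 to -0.77 in KO and -1.01 to -0.58 in WT, and both dyes agreed in sign, -0.96 and -0.83 in KO and -0.69 and -1.05 in WT on Cy5 and Cy3 arrays. On Cy3 arrays alone the KO change did not pass (adjusted p = 0.129), and within array set C the WT change of -0.68 did not once WT 24 h replicate 2 was left out (adjusted p = 0.0869, against 0.0283 with it). The genotypes overlapped at 24 h, and the averaged difference was 0.02 ± 0.08 (adjusted p = 0.917).

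The cap-binding proteins tested were Eif4e, the cap-binding subunit of eIF4F, and Eif4e2, a relative known as a repressor of chosen mRNAs. Eif4e2 fell at 12 h in WT, with -1.15, -1.33 and -0.51, against -0.39, 0.00 and -0.30 untreated, a change of -0.77 ± 0.21 (0.588-fold, adjusted p = 0.0334). The groups did not overlap. On Cy3 arrays the change was -1.37 and on Cy5 arrays -0.16, and without WT 0 h replicate 2 or 3 or WT 12 h replicate 1 or 2 the adjusted p was 0.121, 0.088, 0.118 and 0.176. In KO at 12 h it read -1.14, -1.66 and -1.09, against -0.29, -0.53 and -0.23 untreated, and that change of -0.95 ± 0.21 did not pass (adjusted p = 0.078), but did with weights by group spread, with scale normalization and without the doubted pair of cultures, WT 0 h replicate 3 and KO 24 h replicate 2 (adjusted p = 0.0242, 0.000764 and 0.0488).

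Eif4e itself did not pass as fitted. It read 0.16, 0.37 and 0.30 in KO and 0.47, 0.57 and 0.57 in WT cultures at 12 h, with every KO culture below every WT culture. Its averaged difference of -0.19 ± 0.08 (adjusted p = 0.113) passed without WT 0 h replicate 3, at -0.25 ± 0.06 (adjusted p = 0.00366), and without the doubted pair, at -0.28 ± 0.05 (adjusted p = 0.000529). It also passed with the sign of the unsettled array turned, dye profiles removed or the array set as a term (adjusted p = 0.00273, 0.0454 and 0.0434). Of the other eIF4 factors, the exon junction helicase Eif4a3, the RNA-binding cofactor Eif4b and the scaffold relative Eif4g2 did not pass as fitted, with averaged differences of -0.14, 0.10 and -0.17. The averaged difference of Eif4g2 passed without the doubted pair, at -0.23 (adjusted p = 0.004), with the sign of the unsettled array turned (0.006), without WT 0 h replicate 3 (0.00972) or WT 24 h replicate 3 (0.0318), with the array set as a term (0.0231) and with scale normalization (0.038). At 0.5 h its difference of -0.36 passed with weights by group spread, with the array set as a term and within array set D (adjusted p = 0.0107, 0.0238 and 0.0179), but not with WT 24 h replicate 2 counted in set B (0.0599). The calls of Eif4e and Eif4g2 without the doubted pair are no separate evidence, since the pair was chosen after seeing the data.

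The 4E-BPs hold eIF4E away from eIF4G until mTOR phosphorylates them. Eif4ebp2 rose at 24 h in WT, with 0.65, 0.40 and 0.30, against 0.18, 0.10 and -0.41 untreated, a change of 0.49 ± 0.14 (adjusted p = 0.0286). The groups did not overlap, but the change was 1.00 on Cy5 arrays and -0.01 on Cy3 arrays. Without WT 0 h replicate 3 it was 0.31 (adjusted p = 0.158), and without WT 24 h replicate 1 or 2 the adjusted p was 0.138 and 0.0529. Eif4ebp1 read -0.20, 0.90 and -0.53 in KO and 0.44, 0.63 and 0.44 in WT at 24 h, so that KO replicate 2 alone lay above the WT cultures. The difference at 24 h was -0.45 ± 0.26 (adjusted p = 0.359), and without the doubted pair -0.87 ± 0.16 (adjusted p = 0.00201). Leaving out the pair was decided after seeing the data and takes out this 1 KO culture above the WT ones. The lower p-value is therefore no separate evidence.

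eIF2 delivers the initiator tRNA and eIF2B recharges it with GTP. Eif2b2, the beta subunit of eIF2B, was the member with the lowest adjusted p in WT at 12 h. It read 0.66 and 0.73 there in the 2 cultures with a value, against 0.20, -0.21 and -0.02 untreated, a rise of 0.70 ± 0.14 (1.63-fold, adjusted p = 0.00394). The call held without each culture in turn, at 0.60 to 0.81, and the rise was 0.96 on Cy5 and 0.38 on Cy3 arrays. It did not pass on Cy3 arrays alone, with scale normalization or within array set C (adjusted p = 0.229, 0.0669 and 0.0568). In KO at 12 h it read 0.27, 0.20 and 0.26, all below the WT values, a difference of -0.45 ± 0.14 (adjusted p = 0.0784).

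At 0.5 h the order of the genotypes was the other way for Eif2b2. It read 0.23, 0.10 and 0.28 in KO and -0.21, -0.11 and -0.23 in WT, a difference of 0.39 ± 0.12 that did not pass (adjusted p = 0.0669). It passed with weights by group spread and within array set D (adjusted p = 0.00901 and 0.0309). With the array set as a term the difference was again 0.39. Eif2b2 lacks values in KO 0 h replicate 3 and WT 12 h replicate 3, so limma's standard error is only approximate in that fit. Its adjusted p of 1.34e-07 there is not relied on. At 2 h in WT it read 0.42, 0.11 and 0.08, against the values above at 0.5 h, a rise of 0.39 ± 0.12 (adjusted p = 0.0346). The groups did not overlap, and that call was lost without WT 2 h replicate 1 (adjusted p = 0.198) and without WT 0.5 h replicate 1, 2 or 3 (0.0904, 0.0545 and 0.113).

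The other eIF2 and eIF2B members, Eif2b1, Eif2b4, Eif2s2, Eif2s3x and its Y-linked copy Eif2s3y, passed in no comparison as fitted. All 6 members of this role lay above 0 in WT at 12 h against untreated, with a median of 0.22. On Cy5 arrays the median was 0.68, on Cy3 arrays -0.24 with 1 of 6 above 0, and with the sign of the unsettled array turned 0.02 with 3 of 6. Eif2s3x-ps1, an annotated pseudogene whose probe may read Eif2s3x as well, read 0.27, -3.08 and -0.30 in KO at 24 h and 0.91, 0.70 and -0.70 in WT. Its range there rests on KO 24 h replicate 2. Of the eIF2 kinases, which halt initiation under stress, Eif2ak2 (PKR, activated by double-stranded RNA) read -0.83, -0.99 and -0.82 at 12 h in WT, against -0.54, -0.08 and -0.48 untreated, a change of -0.51 ± 0.17 that did not pass (adjusted p = 0.075). Eif2ak3 (PERK, the sensor of the endoplasmic reticulum) did not pass, with an averaged difference of 0.03 ± 0.07 (adjusted p = 0.858). In KO at 24 h it read 0.42, 0.54 and 0.24, against -0.29 and 0.22 in the 2 untreated cultures with a value. That rise of 0.44 was the highest of the members there and did not pass as fitted. It passed with the array set as a term, at 0.79, where its missing values make the standard error only approximate.

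eIF3, the large scaffold that holds the small subunit, gave 9 tested members, and all 9 lay above 0 in WT at 12 h against untreated, with a median of 0.34. That median was 0.76 on Cy5 arrays, -0.07 on Cy3 arrays with 4 of 9 above 0, and 0.16 with the sign of the unsettled array turned, with 7 of 9. Eif3k read 0.31, 0.43 and 0.48 at 12 h and 0.68, 0.40 and 0.33 at 24 h, against 0.07, 0.03 and -0.34 untreated. It rose by 0.49 ± 0.14 at 12 h (adjusted p = 0.0321) and 0.55 ± 0.14 at 24 h (adjusted p = 0.0097). Untreated cultures lay below treated ones at both times. On Cy3 arrays the rises were 0.17 and 0.32, and on Cy5 arrays 0.81 and 0.78. Without WT 0 h replicate 3 they were 0.36 and 0.42 (adjusted p = 0.198 and 0.0617). At 12 h the call was also lost without WT 12 h replicate 1, 2 or 3 (adjusted p = 0.0584, 0.101 and 0.105), and at 24 h without WT 24 h replicate 1 (0.0682).

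Eif3h and Eif3f, both of the MPN-domain pair of subunits, rose at 24 h in WT. Eif3h read 0.81, 0.82 and -0.19, against -0.04, 0.03 and -0.38 untreated, a change of 0.61 ± 0.18 (adjusted p = 0.0303). The groups overlapped through WT 24 h replicate 3, and without it the change was 0.94, while without WT 0 h replicate 3 or WT 24 h replicate 1 or 2 it was 0.48, 0.44 and 0.44 (adjusted p = 0.127, 0.175 and 0.18). Eif3f read 0.24, 0.41 and 0.14, against -0.23, -0.17 and -0.15, with no overlap and a change of 0.44 ± 0.13 (adjusted p = 0.0318). That call was lost without any of the 3 untreated cultures or WT 24 h replicate 1 or 2, at adjusted p = 0.0518 to 0.138. On Cy3 arrays alone the change of Eif3f was 0.09.

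Eif3l fell between 0.5 h and 2 h in WT, reading -0.10, -0.12 and -0.07 at 2 h, against 0.78, 0.55 and 0.56 at 0.5 h. The groups lay far apart, and the change was -0.72 ± 0.23 (0.606-fold, adjusted p = 0.0329). It was lost without any 1 of the 6 cultures (adjusted p = 0.0624 to 0.109), held within array set D (0.000176), and was -0.20 on Cy5 arrays, while the Cy3 arrays gave -1.25. Averaged over time all 9 eIF3 members lay below 0 in KO relative to WT, from -0.24 for Eif3l to 0.00 for Eif3f, and 0 passed as fitted. On each dye alone 7 of 9 lay below 0.

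Of the scanning factors, Eif1a, which with eIF1 keeps the small subunit open for scanning, rose at 24 h in WT. It read 0.45, 0.67 and 0.06, against -0.04, -0.12 and -0.32 untreated, a change of 0.55 ± 0.14 (adjusted p = 0.0153) with no overlap and of 0.66 on Cy5 and 0.44 on Cy3 arrays. Without WT 0 h replicate 3, WT 24 h replicate 1 or WT 24 h replicate 2 the adjusted p was 0.0649, 0.0538 and 0.109, and with the sign of the unsettled array turned the change was 0.26 (adjusted p = 0.329). Eif1ax, the X-linked form, Eif1b and Eif1ad did not pass in any comparison as fitted.

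Eif6, which keeps free large subunits from joining and is needed to build them, fell between 0.5 h and 2 h in WT. It read -0.06, 0.20 and 0.07 at 2 h, against 0.56, 0.80 and 0.80 at 0.5 h, a change of -0.65 ± 0.18 (0.637-fold, adjusted p = 0.0171) on non-overlapping groups. The dyes agreed in sign, -0.81 on Cy5 and -0.49 on Cy3 arrays, and without WT 0.5 h replicate 2 or 3 or WT 2 h replicate 1 the adjusted p was 0.0592, 0.0692 and 0.0816. Eif5a, the hypusine-bearing factor that helps form hard peptide bonds, read 0.12, -0.06 and -0.10 in KO and 0.14, 0.15 and 0.26 in WT at 2 h. Every KO culture lay below every WT culture there, and the averaged difference was -0.22 ± 0.08 (adjusted p = 0.0784). It passed on Cy3 arrays alone, with scale normalization, with the array set as a term and with the sign of the unsettled array turned (adjusted p = 0.0129, 0.0409, 0.00531 and 0.00928). It also passed without WT 0 h replicate 3, WT 24 h replicate 3 or the doubted pair (0.00475, 0.0431 and 0.00103). The call of Eif5a without the doubted pair, chosen after seeing the data, is no separate evidence.

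**Figure D4:**
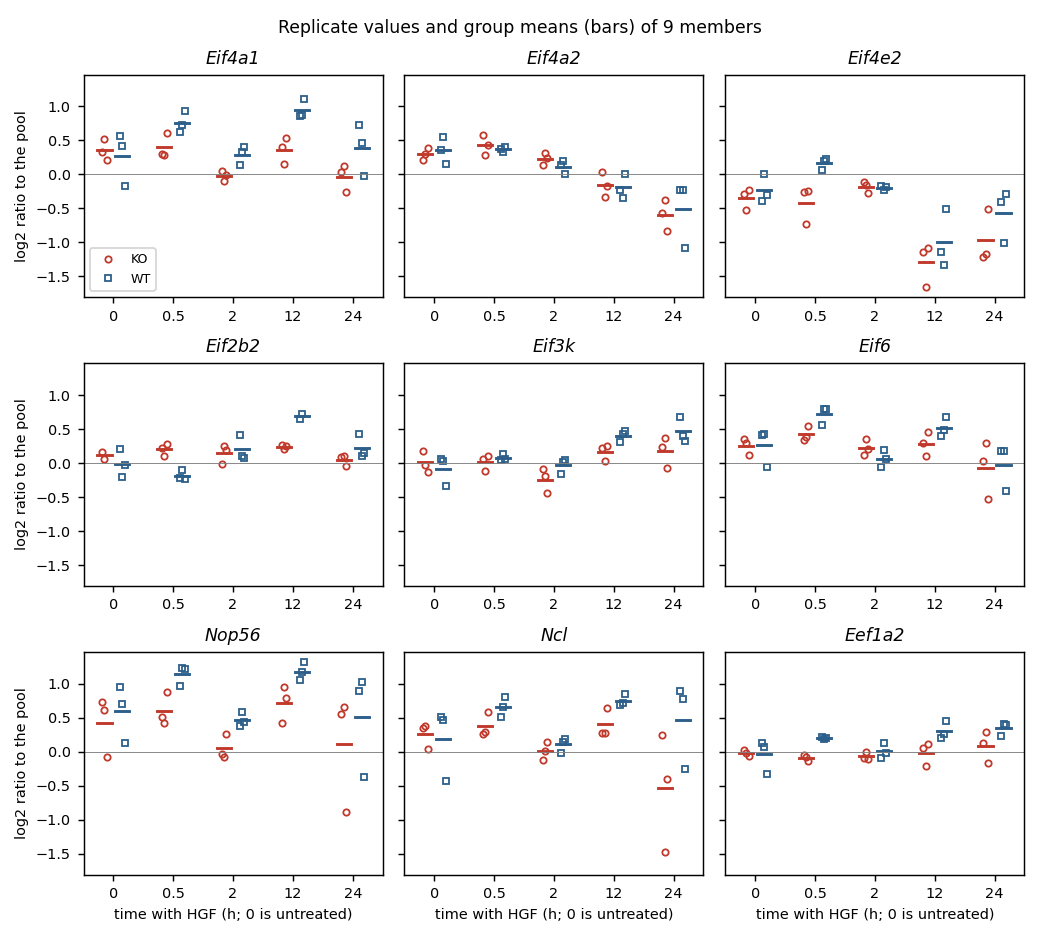
Log2 ratio to the pool (vertical axis) of 9 members in each culture, by time (horizontal axis); circles are KO, squares WT and bars group means. Eif4a2 is lowest at 24 h in both genotypes, all Eif4a1 and Eef1a2 points lie lower in KO than in WT at 0.5 h and 12 h, and Ncl and Nop56 have single low cultures at 24 h.

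The tested members with an Eef symbol lay below 0 in KO relative to WT, 8 of 8 on average over time, with a median of -0.12. They take in the methyltransferase genes Eef1akmt1 and Eef1aknmt and the pseudogene Eef1a1-ps1, besides the elongation factors. Eef1a2, the eEF1A form best known from muscle and neurons, was the only 1 that passed, at -0.19 ± 0.06 (0.88-fold, adjusted p = 0.0343). It read -0.04, -0.07 and -0.14 in KO and 0.22, 0.19 and 0.20 in WT at 0.5 h, and 0.06, -0.21 and 0.12 in KO and 0.20, 0.27 and 0.46 in WT at 12 h. The genotypes did not overlap at these times. With the sign of the unsettled array turned the averaged difference was -0.25 (adjusted p = 0.00655). The averaged call was lost without any 1 of 12 of the 30 cultures, at adjusted p = 0.0504 to 0.064, and a further Eef1a2 probe gave an averaged difference of 0.04 and did not follow the chosen probe over the cultures (r = -0.03).

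Eef1a1, the main form that brings aminoacyl-tRNA to the ribosome, and Eef2, the translocase, did not pass in any comparison as fitted. The averaged difference of Eef1a1 was -0.11 ± 0.08 (adjusted p = 0.484), while that of Eef2 was -0.16 ± 0.08 (adjusted p = 0.257). At 0.5 h Eef2 read -0.30, -0.14 and 0.03 in KO and 0.28, 0.19 and 0.34 in WT, with no overlap, a difference of -0.41 ± 0.19 (adjusted p = 0.204). It passed with the array set as a term, with weights by group spread and within array set D (adjusted p = 0.0301, 0.0171 and 0.0199), though with WT 24 h replicate 2 counted in set B the array set term gave 0.0983. The 3 Eef2 probes ran together over the cultures (r = 0.73 and 0.71 with the chosen probe) but gave averaged differences of -0.16, 0.03 and -0.28. The guanine exchange subunits Eef1b2 and Eef1d, the lysine methyltransferases Eef1akmt1 and Eef1aknmt and the pseudogene Eef1a1-ps1 did not pass.

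Of the nucleolar proteins, Nop56 and Ncl had the lowest averaged differences of all members, but wide spreads. All 7 tested lay below 0 in KO averaged over time, with a median of -0.17, and 0 passed. All 7 also lay above 0 in WT at 12 h against untreated, with a median of 0.48, and 0 passed. That median was 0.74 on Cy5 arrays, 0.08 on Cy3 arrays with 4 of 7 above 0, and 0.29 with the sign of the unsettled array turned. The promoter of Nop56, the member with the largest averaged difference, is shown beside that of Eif4e, whose window holds CACGTG at -228 and -64, again as 250 bases of RefSeq on GRCm38.p6 with E-boxes in capitals.
Nop56, chr2:130274162-130274411, plus strand: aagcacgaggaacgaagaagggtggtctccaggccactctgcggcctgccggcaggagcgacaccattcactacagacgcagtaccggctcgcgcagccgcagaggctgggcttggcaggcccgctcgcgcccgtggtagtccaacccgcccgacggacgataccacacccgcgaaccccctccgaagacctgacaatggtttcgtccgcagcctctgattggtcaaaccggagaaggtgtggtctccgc
Eif4e, chr3:138527018-138527267, plus strand: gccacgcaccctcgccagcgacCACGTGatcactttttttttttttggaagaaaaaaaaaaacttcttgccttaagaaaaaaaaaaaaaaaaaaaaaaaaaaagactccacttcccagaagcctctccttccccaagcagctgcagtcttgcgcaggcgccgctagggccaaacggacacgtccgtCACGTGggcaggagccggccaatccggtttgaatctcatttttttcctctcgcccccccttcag
Nop56 has no CACGTG in this window. CACGTG reads the same on both strands. It was found in 12 of 61 promoters of the 47 members that RefSeq's table holds (19.7%) and in 1978 of all 32851 promoters (6.02%), counted over 250 bases each. The members with it were Eif4a1, Eif4e, Eif5a, Eif1b, Eif3f, Eif3k, Eef2, Eef2k, Eef1aknmt and Nop2, and several promoters of Eif5a share 1 region. The shares above count promoters and not genes. The set of all promoters was not limited to genes on the array or matched in base composition. These shares are therefore not read as a trait of the members.

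Nop56, a core protein of the particles that methylate rRNA, read 0.51, 0.43 and 0.89 in KO and 0.97, 1.23 and 1.22 in WT at 0.5 h. At 12 h it read 0.42, 0.96 and 0.80 in KO and 1.05, 1.17 and 1.32 in WT, and at 2 h -0.03, -0.08 and 0.27 in KO and 0.39, 0.59 and 0.44 in WT. Every KO culture lay below every WT culture at these 3 times. The averaged difference of -0.40 ± 0.15 (0.759-fold) did not pass (adjusted p = 0.0939). It passed without WT 24 h replicate 3 (-0.49, adjusted p = 0.0139), without WT 0 h replicate 3 (-0.44, adjusted p = 0.0494) and without the doubted pair (-0.50, adjusted p = 0.0191). It also passed with the array set as a term, scale normalization or weights by group spread (adjusted p = 0.000216, 0.034 and 0.0475). The call of Nop56 without the doubted pair, chosen after seeing the data, is no separate evidence.

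Ncl encodes nucleolin, an abundant protein of rRNA transcription and packaging. It read 0.25, -1.47 and -0.39 in KO and 0.89, 0.77 and -0.26 in WT at 24 h. The groups overlapped, and the difference of -1.004 ± 0.30 had an adjusted p of 0.0558. It was -1.37 (adjusted p = 0.0062) without WT 24 h replicate 3, and passed with the array set as a term or the unsettled array's sign turned (adjusted p = 0.03 and 0.0379), while weights by group spread gave 0.312. At 12 h Ncl read 0.28, 0.29 and 0.65 in KO and 0.68, 0.72 and 0.86 in WT, with no overlap and an adjusted p of 0.674.

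Nolc1, a chaperone of nucleolar particles, read 0.11, -0.18 and -0.30 in KO and 0.68, 0.63 and 0.00 in WT at 24 h, with an adjusted p of 0.118. Nop2, an rRNA methyltransferase, read 0.04, 0.18 and -0.31 in KO and 0.64, 0.42 and 0.47 in WT at 2 h, the largest difference at that time (-0.54 ± 0.15, adjusted p = 0.142). The groups did not overlap, and with weights by group spread or scale normalization the adjusted p was 0.00405 and 0.0108. Fbl, the rRNA methyltransferase fibrillarin, Nop58, the partner of Nop56, and Pes1, a factor of large subunit assembly, had averaged differences of -0.10, -0.12 and -0.11 and did not pass.

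Of 52 tested ribosome biogenesis factors outside the members, 45 lay below 0 in KO averaged over time, with a median of -0.12. In that comparison 9 were called lower and 0 higher, where 10.1% of all probes passed in either direction. The lowest were Rrp15 at -0.40 ± 0.11 (adjusted p = 0.0151) and Ddx18, a nucleolar helicase, at -0.35 ± 0.08 (adjusted p = 0.00281), and those nearest 0 were Noc3l at -0.21 and Pwp2 at -0.19. Las1l, a nuclease of rRNA spacer cleavage, was lower in KO at 12 h (-0.59 ± 0.13, adjusted p = 0.0125) and rose in WT at 12 h (0.61 ± 0.13, adjusted p = 0.00749). In WT at 12 h 2 of the 52 rose and 0 fell, where 5.81% of all probes passed, Las1l and Grwd1 (0.77 ± 0.20, adjusted p = 0.0221). Calls in this list and in those below are given as fitted. They were not checked on each dye, with cultures left out or with the sign of the unsettled array turned.

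At 24 h 3 of the 52, Mrto4, Sdad1 and Las1l, were lower in KO than in WT, at -1.55, -0.72 and -0.53, where 4.77% of all probes passed, and at 0.5 h Ddx18 was, at -0.61 (4.3%). In WT at 24 h 3 of the 52 rose (8.72% of all probes), among them Sdad1 at 0.70 and Polr1a, the large subunit of RNA polymerase I, at 0.44. Between 0.5 h and 2 h in WT 6 of the 52 fell, led by Imp3 at -0.90 and Wdr46 at -0.75, and Rrp9 rose by 1.43, where 14.5% of all probes passed. The cytosolic aminoacyl-tRNA synthetases, 17 tested, had 2 called lower in KO averaged over time, Gars and Wars, both at -0.21, where 10.1% of all probes passed. In WT 1 of them, Farsa, rose at 12 h by 0.62 (5.81%). At 24 h in WT Gars rose by 0.64 and Yars and Aars fell, at -0.53 and -0.45 (8.72%), and between 0.5 h and 2 h Sars and Yars fell, at -0.53 and -0.44 (14.5%).

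Of 22 tested regulators of translation, 3 were lower in KO averaged over time, Ppp1r15a, the subunit that directs phosphatase 1 to eIF2, at -0.46 ± 0.09 (adjusted p = 0.00166), Tsc2 at -0.23 and Akt1 at -0.22, where 10.1% of all probes passed. Ddit4, an mTOR inhibitor induced by stress, was lower in KO at 24 h, at -1.50 ± 0.44 (adjusted p = 0.0490), 1 of the 22 against 4.77% of all probes. In WT Tsc2 rose by 0.59 at 24 h (8.72%), and Mcts1, Akt1 and Pabpc4 fell between 0.5 h and 2 h, at -0.79, -0.51 and -0.51 (14.5%). Among markers of other liver cells, averaged over time, Dnase1l3 and Clec4g of endothelium (-0.48 and -0.32; 2 of 3 tested) and Cftr of bile ducts (-0.39; 1 of 5) were lower in KO, and 0 of 3 Kupffer and 0 of 3 stellate cell markers passed. At single times the stellate cell marker Dcn and Cftr were lower in KO at 0.5 h, at -1.13 and -1.17 (adjusted p = 0.00564 and 0.0135), Krt7 of bile ducts at 24 h, at -0.55 (adjusted p = 0.00585), and Dnase1l3 at 12 h and 24 h, at -1.32 and -0.89 (adjusted p = 0.00166 and 0.0236). The mean of the endothelial markers ran from -0.64 to -0.38 over the KO cultures and from 0.01 to 0.32 over the WT cultures at 12 h. The part of these markers in the members' differences was not tested.

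The 14 members that were not tested lacked values in some group. They were Npm1, Bop1, Eif3a, Eif3c, Eif3e, Eif2ak1, Eif2d, Eif4e3, Eif4enif1, Eef1e1, Eef1g, Eef2k, Eef1akmt2 and Eef2kmt. Npm1, nucleophosmin, read 0.17, 0.13 and 0.28 in KO and 0.52, 0.61 and 0.96 in WT at 0.5 h, and -0.17, 0.46 and -0.47 in KO and 0.92, 0.88 and -0.66 in WT at 24 h. The genotypes lay apart at 0.5 h and overlapped at 24 h through WT 24 h replicate 3, the WT culture there with both arrays in array set B. Eif3a, the largest eIF3 subunit, read 0.30, 0.21 and 0.48 in KO and 0.45, 0.17 and 0.33 in WT at 12 h, with overlap. A looser filter, which accepted a culture with a value on 1 of its 2 arrays, tested 61 members, and of those added Eef1akmt2 passed, lower in KO at 0.5 h (-0.94 ± 0.26, adjusted p = 0.0468).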

How the data were processed

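The deposited values are log ratios of 60 two-colour arrays and 21997 probes, the sample against a pool of WT RNA. They were taken as log2 ratios made by the authors, per the labels and the range of the deposited values; the log base, background correction, within-array normalization and numerator are not given in the sources used here. Of all values 6.01% were missing. Array medians ran from -0.154 to 0.144, and intensities and depth were not analysed, so precision is limited by the number of arrays. Gene names came from the platform annotation, with 16076 probes of 1 symbol, 288 of several and 5633 of none.

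The median of each array was set to 0 and the dye-swapped pair of a culture averaged, giving 30 values per probe. Probes with both arrays in at least 2 cultures of every group were kept (14580). Groups followed the sample titles, since the treatment field of the 12 h arrays names 0.5 h. The 10 group means were fitted with limma 3.58.1 (lmFit, eBayes; R 4.3.3, statmod 1.5.0), with Benjamini-Hochberg adjustment over all tested probes and a threshold of 0.05. There were 17 comparisons, 1 of them a moderated F-test of whether the responses differ at any time, and comparisons against untreated cultures share those cultures. The p-values measure the spread among these cultures. The procedure was tested on simulated data.

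Alternatives were no centring, scale normalization, a looser filter, each dye alone, dye profiles removed, weights by group spread, the sign of 1 array turned, array set as a term, a replicate block and leaving out each culture. Array sets are runs of array numbers in the titles, separated by gaps of over 700, and are not stated to be batches. A culture was placed by its Cy5 array, which matters only for WT 24 h replicate 2, with 1 array in each of sets B and C. With the array set as a term, limma's standard errors are only approximate for probes with missing values, such as those of Eif2b2, Nolc1, Eif3m and Eif3j1. Calls and counts with that term carry this limit. Restricting to 1 array set, leaving out the doubted pair (WT 0 h replicate 3 and KO 24 h replicate 2), and counting WT 24 h replicate 2 in set B or leaving it out of set C were added after seeing the data. Replicate numbers did not pair the cultures: the block correlation was -0.00231 and 10 of 30 cultures correlated best with their own number.

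The text names called members, at most 6 highest and 6 lowest a comparison, and a fixed panel (Eif2ak3, Eif3a, Eif4e, Eif4a1, Eif4ebp1, Eif5a, Eif6, Eef1a1, Eef2, Ncl, Npm1, Fbl, Nop56, Nop58, Nolc1), and of other lists the 2 highest and 2 lowest called. Other members described were chosen after their values were seen. The members and lists were chosen with earlier results of these data known.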

Additional observations from a re-analysis of the deposited data

How the results depend on the processing

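Of the 16 member results that passed, a replicate block and no centring kept all 16, the array set as a term and the looser filter 15, removing dye profiles 13, turning the sign of 1 array or weighting by group spread 10, Cy5 arrays alone and scale normalization 8, and Cy3 arrays alone 4. Within 1 array set 7 of 14 passed, and 9 without the doubted pair. With WT 24 h replicate 2, which has arrays in sets B and C, counted in B, the array set term again kept 15, and within set C 4 of 11 passed once it was left out. The 1 reversal was Eif4ebp2 in WT at 24 h, -0.0147 on Cy3 arrays alone. The cause of these changes was not tested. Because replicate numbers paired nothing, the replicate block is only a check: it left the count of called members in all 17 comparisons as it was, for example 2 for KO against WT averaged over time.

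The number of members called moved as follows. The share of all probes called also moved between settings, as given above for some of them. It is not set beside each count below, so these counts are not read as a result about the members. For KO against WT at 0.5 h, 0 became 1 with no centring, scale normalization or the looser filter, 5 on Cy3 arrays, 8 weighted, 5 with the array set and 9 within it. At 2 h, 0 became 3 scaled, 2 weighted and 1 with the array set. At 12 h, 0 became 1 scaled, on Cy5 arrays, with the sign turned or within the array set, 2 with dye profiles removed or without the doubted pair, and 3 with the array set. At 24 h, 0 became 1 with dye profiles removed or the sign turned, 4 with the array set, 2 within it or without the doubted pair, and 0 to 8 leaving out single cultures. Averaged over time, 2 became 7 scaled, 0 on Cy5 arrays, 10 with the sign turned, 16 with the array set, 13 without the doubted pair and 1 to 13 leaving out single cultures.

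For WT at 2 h against untreated, 0 became 1 scaled. For WT at 12 h, 4 became 0 scaled, 10 on Cy5 arrays, 15 with dye profiles removed, 1 within the array set or without the doubted pair and 1 to 9 leaving out single cultures. The split of 3 higher and 1 lower there was 1 and 3 with the sign turned. For WT at 24 h, 6 became 2 scaled, on Cy3 arrays or without the doubted pair, 1 weighted, 3 with the sign turned, 10 with the array set and 1 to 16 leaving out single cultures. For KO at 12 h, 0 became 2 scaled and 1 weighted or without the doubted pair. For KO at 24 h, 1 became 0 on Cy3 arrays, 3 with dye profiles removed, 5 with the array set and 1 to 4 leaving out single cultures. For WT at 2 h against 0.5 h, 3 became 8 scaled, 1 on Cy3 arrays, 6 with dye profiles removed, 21 weighted, 5 with the sign turned, 14 with the array set, 18 within it, 7 without the doubted pair and 0 to 2 leaving out single cultures. For KO there, 0 became 6 on Cy5 arrays, 5 on Cy3 arrays or weighted, 3 with the array set and 2 within it. For the difference of responses at any time, 0 became 1 on Cy5 arrays or with the array set, and 0 to 1 leaving out single cultures.

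With WT 24 h replicate 2 counted in set B, the array set term gave 1 for KO against WT at 0.5 h, 2 at 12 h, 6 at 24 h and 12 averaged over time, 11 for WT and 3 for KO at 24 h, 10 for WT and 1 for KO at 2 h against 0.5 h, and 1 for the difference of responses. Within set C without that culture 1 was called for KO against WT at 12 h, 1 for WT at 12 h and 2 for WT at 24 h.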
